A study of Mus musculus with 4 samples.

Results

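The genes described here encode the subunits of integrins and laminins. They were chosen by gene symbol alone, as the numbered Itga, Itgb, Lama, Lamb and Lamc genes together with Itgae, Itgal, Itgam, Itgav and Itgax. These are 35 of the 22369 genes in the deposited table, 24 integrin and 11 laminin genes. RNA was sequenced from OG2MEF cultures, mouse embryonic fibroblasts with an Oct4-driven fluorescent reporter, on day 9 of reprogramming. Per the labels' protocols, the cultures first received retroviruses carrying Sox2 and Klf4, and medium for mouse embryonic stem cells with LIF and vitamin C followed. A group of 2 libraries was labelled as wild-type SOX17, an endodermal transcription factor, and a group of 2 as SOX17-V118M, a missense form altered where SOX17 contacts OCT4. The protocol lists OCT4 and the SOX17 forms side by side and does not say which libraries received which mix. The labels give no origin for the replicates, so the spread that p-values rest on may be technical. In these bulk cultures fewer cells of a type and less RNA per cell cannot be told apart.

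Integrins are cell surface receptors made of an alpha and a beta chain, which link the matrix outside the cell to talin and the actin cytoskeleton inside. The beta 1 chain pairs with many alpha chains, while the beta 4 chain pairs with alpha 6 alone, in the hemidesmosomes that anchor epithelia. Laminins are cross-shaped trimers of an alpha, a beta and a gamma chain, and they form the sheet of the basement membrane. Fibroblasts are rich in fibronectin and collagen receptors, and integrin signalling changes as fibroblasts become epithelial early in reprogramming.

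The values are normalized scores, rounded to whole numbers and made nearly equal in distribution across libraries, so the sequencing depth behind them is unknown. In each library 10 genes share the highest value, 61186, and Pou5f1, which encodes OCT4, was there in all 4 libraries. Pairs of values from here on are wild-type replicates 1 and 2 against V118M replicates 1 and 2. Sox17 was at 3484 and 2880 against 3016 and 2396, Klf4 at 29444 everywhere but V118M replicate 2 (17589), and Sox2 at 2 to 4. The Sox2 scores go against the protocol, which names Sox2 among the retroviruses given to the cells. The table holds no sequence, so the mutation itself could not be checked. Fibroblast markers were present throughout, with 12 of 12 in the table and 0 of them at 0 in all libraries. Their summed level was 146052 and 154495 against 149231 and 130596. A large part of that sum was Col3a1, at the shared highest value of 61186 in the first 3 libraries and at 29496 in V118M replicate 2. Of the 12 markers 7 had a log2 fold change above 0, 3 below and 2 at 0. V118M replicate 2 stood apart: its log2 deviation from the mean of the other 3 libraries fell with transcript length across 19503 genes (Spearman's rho -0.411, against 0.0923 to 0.324 for the other libraries). Integrin and laminin transcripts are long, with a median of 5706.5 bases over the tested members against 2800 over all tested genes. Fold changes and list tallies below are therefore also given without that library.

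Of the 35 members, 34 passed the filter of at least 1 in at least 2 libraries and were tested. Itgax, a leukocyte alpha chain, did not pass, with 0 listed for 3 libraries and 6 for V118M replicate 2. The mean over the 4 libraries reached 10 in 32 members. Levels were compared between genes per kilobase of the longest annotated coding transcript. Such an order is approximate, because the way the scores were normalized is unknown and shared top values compress differences among abundant genes.

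Among integrins, beta chains stood at the top of this order. Itgb1, the common beta chain, had the highest score per kilobase of the 35, with a mean of 13516 and a range of 5949 to 16038 over the 4 libraries. Itgb4, the hemidesmosome chain, followed at 1811 (1122 to 2386), and the next integrin was Itgb5, which pairs with alpha v to bind vitronectin, at 973 (950.03 to 1000.0). The ranges of these 3 beta chains did not overlap. Among alpha chains Itga6, a laminin receptor chain, led with 530 per kilobase, and Itgav and the fibronectin receptor chain Itga5 followed at 396 and 359. The ranges of Itga6 and Itgav overlapped, but Itga6 was the higher in each of the 4 libraries. The lowest Itga6 value, 417, was above the highest Itga5 value, 390. The ranges of Itgav and Itga5 also overlapped. Itgav was the higher in both wild-type libraries and Itga5 in both V118M libraries, so the order of Itgav and Itga5 does not hold. Of the laminin chains Lamc1, the common gamma chain, was highest at 1005 per kilobase, with a range that overlapped that of Itgb5, followed by Lama4 at 737 and Lamb2 at 558, with each range overlapping the next. Of the chains of laminin-332, the epithelial laminin that binds alpha 6 beta 4, Lamb3 was at 452 and Lama3 at 269. Lama1, the alpha chain of the embryonic and endodermal laminin-111, was lowest of the laminins at 1.47.

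**Figure D1:**
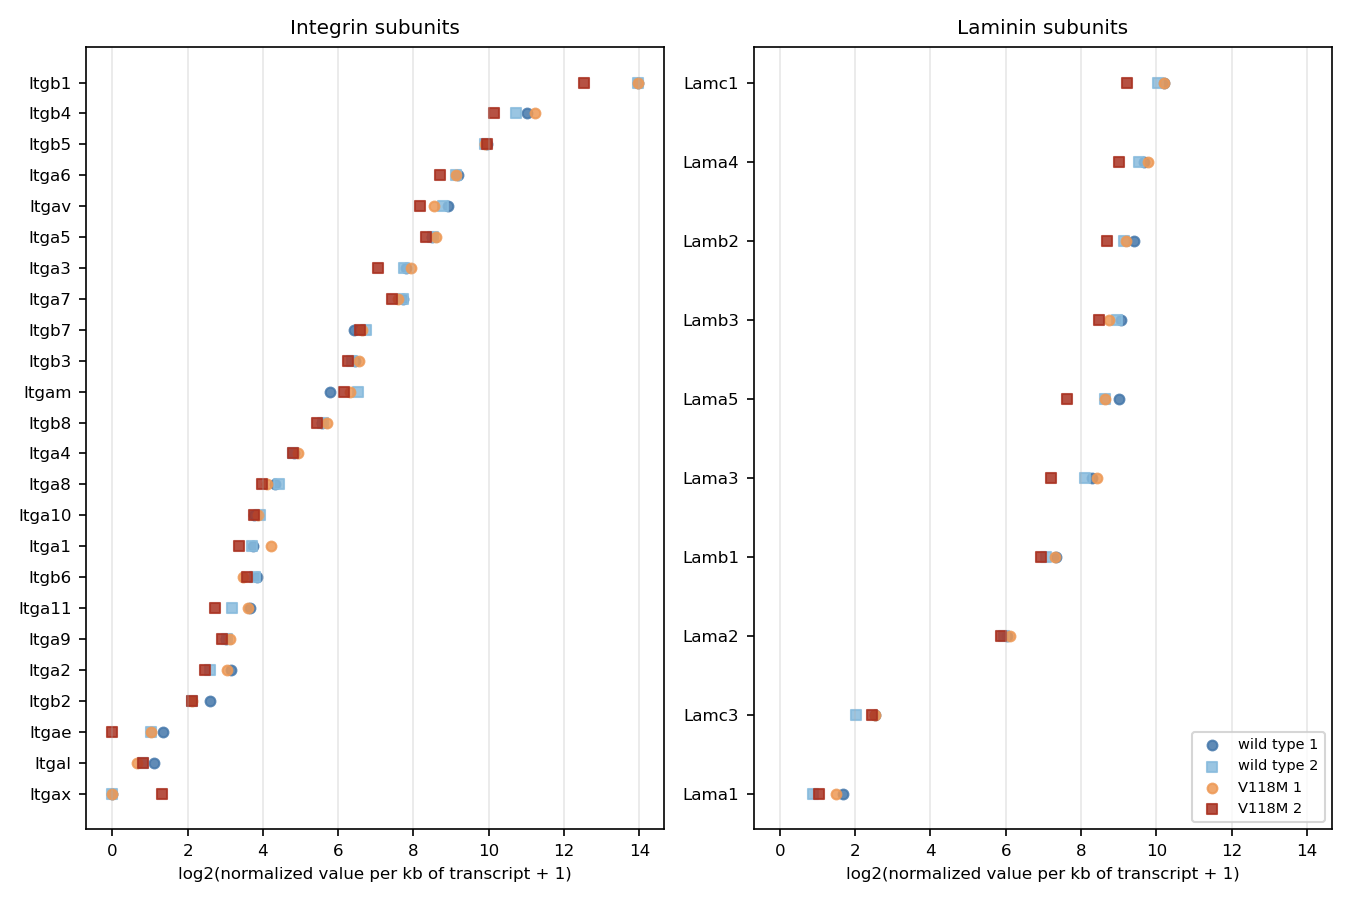
Score per kilobase of transcript, as log2 of that value + 1, for 24 integrin genes (left) and 10 laminin genes (right) in the 4 libraries, ordered by the mean. Itgb1 stands at the top with a mean of 13516 per kilobase, and V118M replicate 2 (dark red squares) is the lowest library for most of the abundant genes.

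Setting V118M beside wild-type SOX17 asks whether the mutation changes subunit expression. Most members were lower in V118M: 27 of 34 had a log2 fold change below 0, 6 above and 1 at 0, with a median of -0.21, while 48.2% of all 19547 tested genes were below 0 and their median was 0. No member passed the test (limma with Benjamini-Hochberg adjustment over all genes), where 0.0% of all genes passed. At an unadjusted p under 0.05 there was 1 member, Itgav, against 4.01% of all genes, of which 1.7% were lower and 2.31% higher. The lower values lay mostly in V118M replicate 2, which was the lowest of the 4 libraries for 25 of the 34 members, as it was for 32.7% of all genes. Without it the member median was 0.087, with 20 members above 0 and 13 below, and without V118M replicate 1 the median was -0.37, with 3 above and 31 below.

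Transcript length moved with this difference. Among the 4875 tested genes with transcripts of 4272 bases or more, V118M replicate 2 was the lowest library for 63.4%, and its median deviation from the other 3 was -0.29. In that length class lay 28 of the tested members, for 22 of which it was the lowest library, with a median deviation of -0.39. With a smooth trend on length and GC content removed from each library, 14 members were above 0 and 20 below, against 48.6% of genes below 0, and the member median was -0.096. The members with an unadjusted p under 0.05 in that fit were Itgav, Lama5 and Lamb3, and 5.64% of all genes reached it. The part of transcript length in each member's value was not tested beyond this fit.

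**Figure D2:**
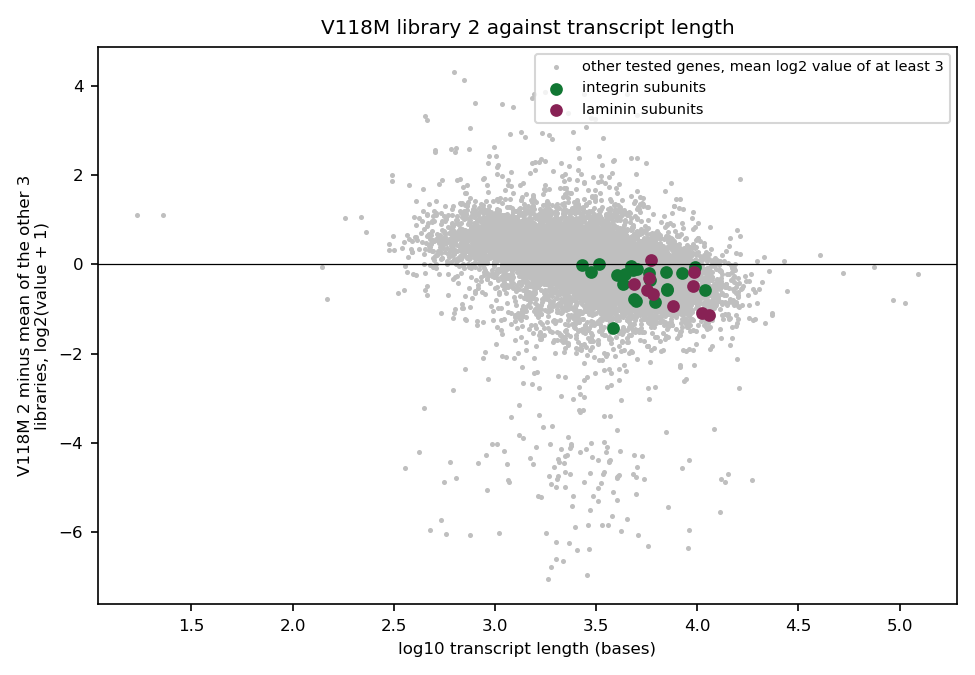
Deviation of V118M replicate 2 from the mean of the other 3 libraries, on the log2(value + 1) scale, against log10 transcript length, for tested genes averaging 3 or more on that scale. Integrin (green) and laminin (purple) genes lie at the long end, where the grey points also lie mostly below 0.

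Fold changes below are given as log2(value + 1) in V118M less that in wild type, a scale that understates changes where values are low. Itgav, the alpha v chain shared by several receptors for the RGD peptide of vitronectin and fibronectin (chromosome 2, 83724397 to 83806916), was at 3410 and 3122 against 2616 and 2030. Both V118M libraries lay below both wild-type libraries. The log2 fold change came to -0.50 ± 0.18 (standard error; limma unadjusted p = 0.0397, adjusted p = 0.951). Without V118M replicate 2 the value was -0.32, and with the length trend removed it was -0.39, with V118M replicates 1 and 2 at -0.36 and -0.41 from the wild-type mean.

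Groups that do not overlap, with V118M lower, were found in 6 members, against 14.8% of all tested genes, and with V118M higher in 0, against 13.2%. Besides Itgav these included Itga8, Itga7, Itgb6 and Lamb3. Itga8, an RGD-binding chain of mesenchyme, was at 110 and 120 against 95 and 85, a log2 fold change of -0.35 (95% interval -0.88 to 0.18) and -0.27 without V118M replicate 2. Itga7, a laminin receptor chain of muscle, stood at 850 and 844 against 768 and 695. For Itgb6, an epithelial chain that pairs with alpha v and activates latent TGF-beta, the scores were 64 and 62 against 49 and 53. None of these passed the adjusted test. The 6 lower members are 17.6% of those tested, near the background.

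Because the study's design concerns a SOX/OCT element, promoter windows of these genes were searched for it. Those from 250 bases before to 50 after the RefSeq start (GRCm38.p6) are printed for the 3 of these 6 genes whose window held the start given in the deposited table. Capitals mark the SOX core ATTGT, or its reverse complement, and the GC box GGGCGG. They are chr2:83724147-83724446 on the plus strand for Itgav, chr2:12301895-12302194 on the minus strand for Itga8 and chr2:60673644-60673943 on the minus strand for Itgb6.
Itgav: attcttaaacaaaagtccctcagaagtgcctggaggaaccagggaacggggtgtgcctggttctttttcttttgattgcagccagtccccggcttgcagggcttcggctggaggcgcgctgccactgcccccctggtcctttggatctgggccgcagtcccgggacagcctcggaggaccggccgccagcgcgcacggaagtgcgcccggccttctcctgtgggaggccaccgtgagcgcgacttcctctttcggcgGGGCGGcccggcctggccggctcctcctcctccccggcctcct
Itga8: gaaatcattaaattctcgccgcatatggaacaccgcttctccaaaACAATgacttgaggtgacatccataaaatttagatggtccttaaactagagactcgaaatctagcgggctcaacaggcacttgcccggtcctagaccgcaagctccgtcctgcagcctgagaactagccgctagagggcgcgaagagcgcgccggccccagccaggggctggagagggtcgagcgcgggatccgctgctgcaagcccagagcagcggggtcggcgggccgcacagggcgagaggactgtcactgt
Itgb6: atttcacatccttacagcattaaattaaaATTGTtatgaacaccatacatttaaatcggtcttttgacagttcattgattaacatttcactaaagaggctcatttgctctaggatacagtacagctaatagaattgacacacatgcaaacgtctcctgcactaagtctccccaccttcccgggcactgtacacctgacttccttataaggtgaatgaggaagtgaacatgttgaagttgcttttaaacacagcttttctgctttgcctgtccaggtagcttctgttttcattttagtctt
The printed windows of Itga8 and Itgb6 each held 1 SOX core and that of Itgav none, while Itgav held 1 GC box. Another RefSeq window of Itgb6, chr2:60722554-60722853, did not hold the start given in the deposited table and had no SOX core. RefSeq windows were found for 22 of the 35 members, 25 windows in all, searched on both strands. The SOX core was in 6 of the 25, against 31.0% of all 32851 windows, and the GC box in 12, against 35.7%. The compressed SOX/OCT element named in the study's design, CATTGTATGCAAAT, was in 0 of the 25 and in 0 of all windows. Its octamer part ATGCAAAT, which overlaps it, was in 0 of the 25 and in 1.74% of all windows. A match is a run of letters only and does not show binding.

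Except for Itgb6, the beta chains overlapped between the groups. Itgb1 was at the shared highest value, 61186, in both wild-type libraries and V118M replicate 1, and at 22697 in V118M replicate 2. Differences among the first 3 cannot be seen at that ceiling, and the log2 fold change of -0.72 (standard error 0.48, limma adjusted p = 0.951) was 0 without V118M replicate 2. Itgb5 was the steadiest abundant member, at 3282 and 3146 against 3118 and 3228, with a 95% interval of the log2 fold change from -0.38 to 0.34 and a value of -0.043 without V118M replicate 2. Itgb3, the beta chain of the osteoclast vitronectin receptor, was at 497 and 470 against 538 and 436. Itgb8, another alpha v partner, was at 392 and 399 against 430 and 355. For both of these chains the V118M libraries lay on either side of the wild-type pair.

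Itga5, Itga4 and Itga9 overlapped between the groups. Itga5 was at 1564 and 1618 against 1708 and 1402, with a 95% interval of its log2 fold change from -0.45 to 0.38 and a value of 0.10 without V118M replicate 2. Itga4, which binds fibronectin and VCAM1, was at 270 and 264 against 290 and 262, and its relative Itga9 at 50 and 51 against 54 and 46. In each of these 3 genes V118M replicate 1 was the highest library and V118M replicate 2 the lowest.

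Collagen-binding alpha chains were low. Itga1 was at 136 and 133 against 191 and 102, so that its V118M libraries lay on opposite sides of wild type. Leaving out V118M replicate 2 gave a log2 fold change of 0.50, and leaving out V118M replicate 1 gave -0.40. Itga2 was at 56 and 36 against 52 and 32, Itga10 at 63 and 72 against 69 and 63, and Itga11, a collagen receptor chain of fibroblasts, at 58 and 40 against 55 and 28. The groups overlapped in all 4 genes.

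Laminin receptors and epithelial laminins were examined together, since alpha 6 beta 4 and laminin-332 meet in the hemidesmosome. Itga6 was at 2519 and 2398 against 2427 and 1798. Itgb4 was at 12752 and 10437 against 14813 and 6967, with the highest and the lowest library both in V118M. Itga3, which pairs with beta 1 to bind laminin-332 and laminin-511, was at 1080 and 1050 against 1191 and 647. The V118M libraries bracketed wild type for Itga3 and Itgb4.

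Of the laminin-332 chains, Lamb3 (chromosome 1, 193207699 to 193343878) was at 2590 and 2400 against 2084 and 1722. This gave a log2 fold change of -0.40 ± 0.17 (standard error; limma unadjusted p = 0.0600, adjusted p = 0.951), with -0.26 without V118M replicate 2 and -0.28 with the length trend removed (unadjusted p = 0.0346). Both V118M libraries lay below both wild-type libraries. Lama3 was at 3311 and 2883 against 3618 and 1532, so its groups overlapped. The difference between Lama3 and Lamb3 was not tested.

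Some hemidesmosome partners had higher values in V118M. Krt5, a basal keratin, was at 246 and 199 against 664 and 731 (log2 fold change 1.65, limma adjusted p = 0.332, and 1.58 without V118M replicate 2). Krt14, its partner keratin, was at 4752 and 4358 against 5802 and 8053, and Col17a1, the transmembrane collagen of hemidesmosomes, at 518 and 392 against 734 and 522. All 3 had V118M above wild type in both libraries. Of the 6 listed partners these 3 were higher and 3, Dst, Plec and Cd151, were lower, and 0 passed the adjusted test. An unadjusted p under 0.05 was found for 2, against 4.01% of all tested genes. Without V118M replicate 2 there were 5 higher and 1 lower. Over 11 basal epithelial markers, 0 of them at 0 in all libraries, the summed level was 80075 and 79566 against 85945 and 39477. Most of that sum in the first 3 libraries was Dsp, the desmosomal protein desmoplakin, at the ceiling of 61186 there and at 12776 in V118M replicate 2. Krt5, Krt14 and Col17a1 are among both the partners and these 11 markers, so the tallies are not independent. Of the 11 markers 8 were higher in V118M and 3 lower, with a median log2 fold change of 0.46. The 3 lower were Dsp, Dsg3 at 370 and 314 against 304 and 161, and Trp63, which encodes p63, at 105 and 107 against 112 and 92. In 7 of them both V118M libraries lay above both wild-type libraries, against 13.2% of all tested genes. At an unadjusted p under 0.05, 4 were higher, against 2.31% of all tested genes, and 0 passed the adjusted test. Without V118M replicate 2 there were 8 higher and 2 lower, with a median of 0.35. The part of these markers in the laminin-332 values was not tested.

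**Figure D3:**
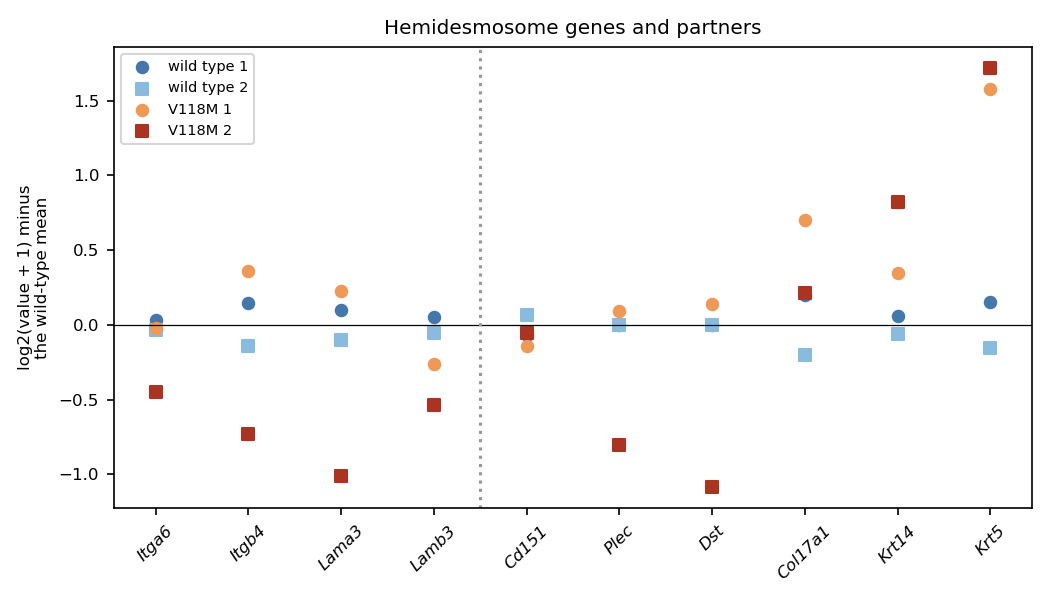
Hemidesmosome receptor and laminin-332 genes (left of the dotted line) and their partners (right), as log2(value + 1) minus the wild-type mean in each of the 4 libraries. Lamb3 is below wild type in both V118M libraries, while Krt5 and Krt14 are above it in both.

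Chains of the other laminins were lower mainly in V118M replicate 2. Lama5, the alpha chain of laminin-511 and laminin-521 (chromosome 2, 180176373 to 180225859), was at 5810 and 4504 against 4559 and 2252. The difference was -0.67 ± 0.36 in log2 units (standard error; limma adjusted p = 0.951). V118M replicate 1 lay between the wild-type libraries, and without V118M replicate 2 the value was -0.17. With the length trend removed it was -0.44 (unadjusted p = 0.0222), with V118M replicates 1 and 2 at -0.32 and -0.55 from the wild-type mean. Lamc1 was at 9003 and 8064 against 9003 and 4559, Lamb2 at 3804 and 3170 against 3278 and 2302, and Lama4, of mesenchymal and vascular laminins, at 4929 and 4456 against 5341 and 3096. Each of these 3 chains overlapped between the groups, and each was lowest in V118M replicate 2. Lamb1 was at 934 and 769 against 912 and 698, and Lama2, the chain of muscle and nerve laminins, at 620 and 584 against 658 and 550. Lama1 was at 21 and 8 against 17 and 10, and Lamc3 at 28 and 18 against 28 and 26, near the bottom of the scale. The markers of primitive and parietal endoderm, cells that make laminin-111, were 10 genes with a summed level of 5999 and 5907 against 5908 and 4682. Of these 7 were tested, 3 higher and 4 lower, with a median of -0.11, and without V118M replicate 2 there were 2 higher and 5 lower. Dab2 was at 3818 and 3964 against 3760 and 2756, and Gata6 at 119 and 116 against 105 and 92. Sox7 was at 73 and 52 against 24 and 27. In the other direction, Pdgfra was at 302 and 248 against 460 and 352 (log2 fold change 0.55, and 0.75 without V118M replicate 2). Gata4 and Plat also had fold changes above 0, while Foxa2 was at 0 in all libraries. The part of these endoderm markers in the laminin values was not tested.

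**Figure D4:**
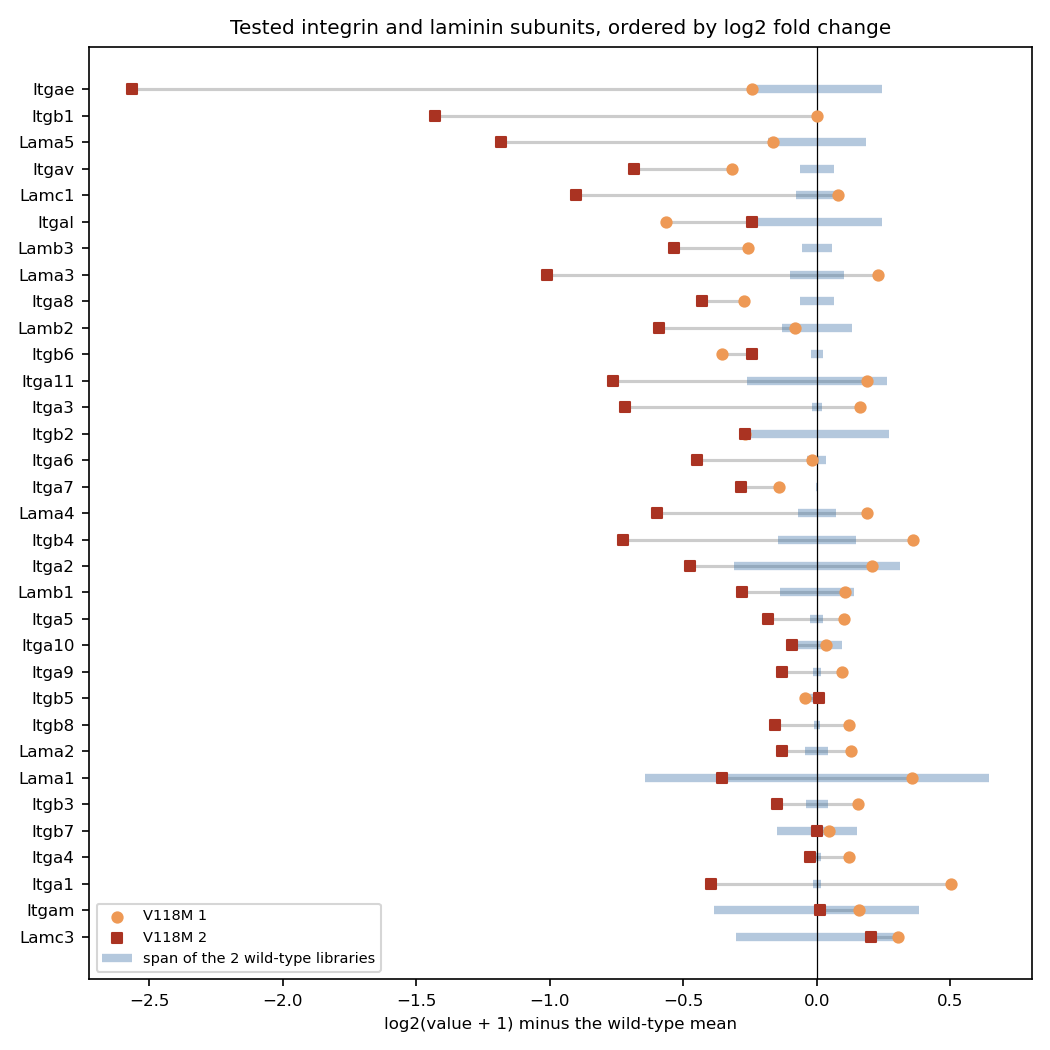
Each V118M library minus the wild-type mean on the log2(value + 1) scale for the tested members plotted, ordered by log2 fold change, with the span of the 2 wild-type libraries in blue. V118M replicate 2 lies left of V118M replicate 1 for most members, and both lie left of the wild-type span for Itgav, Itga8, Itga7, Itgb6 and Lamb3.

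Leukocyte integrin chains gave an uneven picture. Itgam, the alpha M chain of macrophages and neutrophils, was at 251 and 428 against 366 and 330, while Itgb2, the beta chain with which it pairs, was at 15 and 10 against 10 and 10. Itgb7 was at 229 and 282 against 262 and 254, whereas its partner Itgae was listed at 6 and 4 against 4 and 0. Its other partner, Itga4, was at 262 to 290. Itgal was at 3 to 6. The groups overlapped in Itgam, Itgb2 and Itgb7. The table holds 14 leukocyte markers, of which 1 (Cx3cr1) was at 0 in all libraries, and their summed level was 843 and 507 against 348 and 404. Of these 13 were tested, 1 higher, 11 lower and 1 at 0, with a median log2 fold change of -0.50. Without V118M replicate 2 there were 0 higher and 11 lower, with a median of -0.97. Leaving out wild-type replicate 2 gave 0 higher and 13 lower, with a median of -1.34. Leaving out wild-type replicate 1 gave 5 higher and 6 lower, with a median of -0.14. Leaving out V118M replicate 1 gave 6 higher and 7 lower, with a median of -0.11. The size of the difference thus depended on wild-type replicate 1 and V118M replicate 1. Ptprc, the pan-leukocyte gene, was at 165 and 58 against 30 and 0, and Cd68 of the same list at 136 and 206 against 142 and 110. Itgam did not follow Ptprc across libraries and was highest in wild-type replicate 2, as among these markers only Cd68 was. Most of the other markers were, like Ptprc, highest in wild-type replicate 1, where Itgam was lowest. Among them were Lyz2 at 193 and 86 against 38 and 87 and Laptm5 at 72 and 44 against 36 and 44. Cd14 was highest in V118M replicate 2. The part of leukocytes in the Itgam values was not tested. The annotation gives Itgam 3450 exon bases in common with the same-strand gene model Gm49368, so reads could be split between them. Exons of 11 members overlap another gene model, on the opposite strand in 8, among them Itgav with Gm13684 at 8 to 16 and Itgb4 with B230344G16Rik at 6 to 30.

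Genes that work with integrins were set beside the members. Of 27 focal adhesion genes, which couple integrins to actin, 8 were higher and 19 lower, with a median log2 fold change of -0.15. V118M replicate 2 was the lowest library for 17 of them, and without it 14 were higher and 12 lower, with a median of 0.0082. None passed the adjusted test, and 1 had an unadjusted p under 0.05, against 4.01% of all tested genes. That gene, the tensin Tns2, was at 1005 and 970 against 732 and 582, with both V118M libraries below wild type (log2 fold change -0.60, and -0.43 without V118M replicate 2). Vcl, the talin-binding protein vinculin, was at 6321 and 6690 against 5800 and 3338, and the kindlin Fermt1 was at 24 and 18 against 32 and 66. In both V118M libraries Vcl was below and Fermt1 above its wild-type values.

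Of 20 basement membrane genes 14 were lower and 6 higher, with a median of -0.18, and V118M replicate 2 was the lowest library for 15. Without that library 14 were higher and 6 lower, with a median of 0.092. None passed the adjusted test. Col4a4 and Col4a3, minor chains of collagen IV, were at 39 and 23 against 59 and 57 and at 36 and 38 against 68 and 50, while Col4a5 was at 995 and 984 against 862 and 786. Among 17 measured integrin ligands 10 were higher and 7 lower, with a median of 0.076 and 0 past the adjusted test, and without V118M replicate 2 the median was 0.030. Periostin (Postn), an alpha v ligand, was at 1263 and 1098 against 1889 and 1744, with a difference of 0.62 in log2 units (limma adjusted p = 0.951, and 0.68 without V118M replicate 2). Vcam1, the ligand of alpha 4 beta 1, was at 639 and 703 against 778 and 846, and osteopontin (Spp1) at 3004 and 3066 against 2974 and 4302. In Postn and Vcam1 both V118M libraries lay above both wild-type libraries. Of 9 integrin-related genes outside the symbol rule 7 were tested, 4 higher and 3 lower, with 0 past the adjusted test, while without V118M replicate 2 there were 2 higher and 5 lower. Itgb1bp2, a muscle protein that binds the beta 1 tail, was at 0 and 1 against 7 and 7, near the bottom of the scale. Itgbl1 was at 680 and 674 against 695 and 855, and Itga2b, the platelet alpha chain, at 12 and 16 against 8 and 12.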

How the data were processed

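The deposited table gives a score per gene and library, normalized by the authors and rounded to whole numbers. The method of normalization is not stated in the labels or the header. Column totals lay between 12855482 and 12859613, so the scores are not raw counts and no depth or counting interval is given. Bowtie2, RSEM, DESeq2, FastQC and the build mm10 appear in the submitters' processing notes, with no role stated. Coordinates, transcript lengths and GC content came from GENCODE M21 (GRCm38, also called mm10), where 22304 of 22369 listed transcripts were found. Lengths are those of the longest basic coding transcript of a gene.

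Scores were transformed as log2(value + 1), genes reaching 1 in 2 or more libraries were kept, and a model with group alone was fitted in limma 3.58.1 (R 4.3.3; trend and robust options, two-sided, Benjamini-Hochberg adjustment over 19547 genes). The procedure was tested on simulated data. Alternatives were pseudocounts of 0.1 and 5, no filter, a minimum of 10, the replicate number as a block, array quality weights, a length and GC trend removed (natural splines), and each library left out. Members, lists and the naming rule were chosen with earlier results of these data known. The rule gave values of members with a mean of at least 10 and fold changes for those with unadjusted p under 0.05 or an absolute log2 fold change of at least 0.5, and up to 3 genes per other list. Fold changes of other members were added after their values were seen. Promoter sequences are from RefSeq (GRCm38.p6). Counts and medians cover all members, of which 1 is not reported here by name.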

Additional observations from a re-analysis of the deposited data

How the results depend on the processing

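Under the 12 alternatives 0 members passed the adjusted test. Left-out libraries moved the median of all tested members from -0.37 to 0.087, of the integrins from -0.27 to 0.044 and of the laminins from -0.53 to 0.11. The sign turned without V118M replicate 2 in each case. The 1 library then left in a group is assumed to vary like the other group. The number of members above 0 ranged from 3 to 20 there, members with an unadjusted p under 0.05 from 0 to 10, and all such genes from 221 to 5096. With the length and GC trend removed, 14 members were above 0, 3 had an unadjusted p under 0.05, and the integrin median was -0.021. The 8 members with the largest or non-overlapping differences kept a value at or below 0 under every alternative. For the 6 of them whose groups do not overlap, leaving out a library cannot turn the sign. The block alone, the filters and the array quality weights left the fold changes of these members unchanged. Their kept sign was thus largely fixed by how they were chosen and is no check of their direction. Without a filter 2 members and 1441 genes had an unadjusted p under 0.05.

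With the replicate block 3 genes passed the adjusted test, 1204 genes and 3 members had an unadjusted p under 0.05. With the block and the trend removed together these were 34 genes, 1459 genes and 2 members, and 14 members were above 0 with an integrin median of -0.021. Same-numbered libraries deviated together (correlation 0.303 over 12661 genes), but the labels do not say that a number marks a shared culture, and 2 pairs cannot settle it. Unknown depth limits what can be said of genes near 0.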
